A study of Mus musculus with 26 samples.

Results

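The T cell coreceptors and the transcription factors that set the choice between the CD4 and CD8 lineages were examined in thymocytes maturing to CD8 T cells. The 9 genes were Cd4, Cd8a, Cd8b1, Runx1, Runx3, Zbtb7b, Gata3, Tox and Patz1. They were chosen by symbol from the 46517 symbols of the table, and all 9 passed the filter on low values, which left 16372 genes to test.

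Thymocytes came from 3 T cell receptor transgenic lines whose receptors recognise MHC class I. TG6 thymocytes, from TG6tg H2b/d mice bred between the strains C57/BL6 and B6.C-H2d/bByJ, have low self-reactivity. F5 thymocytes (F5tg Rag1KO, C57/BL6) have intermediate and OT-1 thymocytes (OT-1tg Rag2KO, C57/BL6) have high self-reactivity. Mice were 3 to 10 weeks old, and no treatment was named. Thymus cells were sorted by surface protein. The early cells, in early positive selection, were CD4+CD8+CXCR4+CCR7-. The late cells, in late positive selection, had lost the chemokine receptor CXCR4 and gained CCR7 (CD4+CD8+CXCR4-CCR7+). The mature cells, called CD8 single positive (CD8SP), had also lost CD4 (CD4-CD8+CXCR4-CCR7+). Each of the 9 groups had 3 libraries of biological replicates, except TG6 late with 2, and RNA sequencing gave 26 libraries. F5 and OT-1 each differ from TG6 in receptor, Rag genotype, MHC haplotype and strain together, so these cannot be told apart. F5 and OT-1 share the strain C57/BL6 and its MHC haplotype. They differ in receptor and in the Rag gene that they lack, which cannot be told apart either. Only the lines F5 and OT-1 lack a Rag gene, which keeps their cells from rearranging receptor genes of their own, whereas TG6 cells could do so. A single receptor per line stands for its level of self-reactivity.

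CD4 and CD8 are the coreceptors that bind MHC class II and class I beside the T cell receptor. CD8 on thymocytes is mostly a heterodimer of an alpha chain (Cd8a) and a beta chain (Cd8b1). Double positive thymocytes carry both coreceptors, and a cell selected on MHC class I silences Cd4 and keeps Cd8. Runx3 represses Cd4 and drives the CD8 lineage, whereas ThPOK, the product of Zbtb7b, drives the CD4 lineage, and each represses the other. Runx1, Gata3, Tox and Patz1 (MAZR) act on the coreceptor genes or on the lineage choice itself.

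All values are normalized counts, the read counts that the authors scaled so that libraries can be compared, and their totals lay between 16134786 and 18944173 per library. Differences were tested with limma on log2(value + 1), so folds of low genes are understated. Every adjusted p below is limma's with Benjamini-Hochberg adjustment, over all 16372 genes in the main fit. Alternatives with another filter, scaling to the total or fewer libraries adjusted over the genes they tested. There were 28237 such genes with no filter and 11016 with a mean of at least 50. A gene was called changed under an adjusted p of 0.05, and ± after a log2 fold change is its SE. The T lineage genes Cd3e, Cd3d, Cd3g, Trac, Cd2 and Cd5 together lay between 35522 and 88386 in every library. The sums of 5 B cell markers (108 to 319), 5 myeloid markers (84.1 to 347), 5 dendritic cell markers (26.7 to 239.9), 5 thymic epithelial markers (24.5 to 76.0) and 4 red cell markers (20.3 to 699.7) were far lower. Markers of natural killer and gamma-delta T cells differed by line, though F5 and OT-1 mice lack a Rag gene that gamma-delta receptors need and the early and late gates ask for CD4+CD8+ cells. Their part in the line differences was not tested. The 5 genes summed to 1764 to 3725 in TG6, 6530.0 to 10037 in F5 and 6663 to 12690.2 in OT-1. Of these 5, Ncr1 was listed at 0 in all 26 libraries, Klrb1c did not exceed 15.3, Trdc made up most of the sum, and Sox13 was at 1243 to 3616 in OT-1 against at most 223 elsewhere. The RNA of the sorted surface proteins followed the gates only in part. Ccr7 rose from early to late by 5.81, 4.45 and 3.60 on the log2 scale in TG6, F5 and OT-1. Cxcr4 lay at 4598 to 5527 in TG6 early against 1024 to 1133 in TG6 late, but at 1425 to 2898 in OT-1 early against 350.1 to 1432 in OT-1 late, where the groups overlap by a narrow margin. In CXCR4- mature cells it lay at 1219 to 3316 in OT-1 and 1462 to 4031 in F5, which overlaps the early libraries of each line (2638 to 4185 in F5). One library, TG6 mature replicate 3, correlated with a group mate at 0.950 (Pearson r over log2 values), the lowest within any group, and stands apart for several genes below. In bulk RNA, fewer cells of a type and less RNA per cell cannot be told apart.

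**Figure D1:**
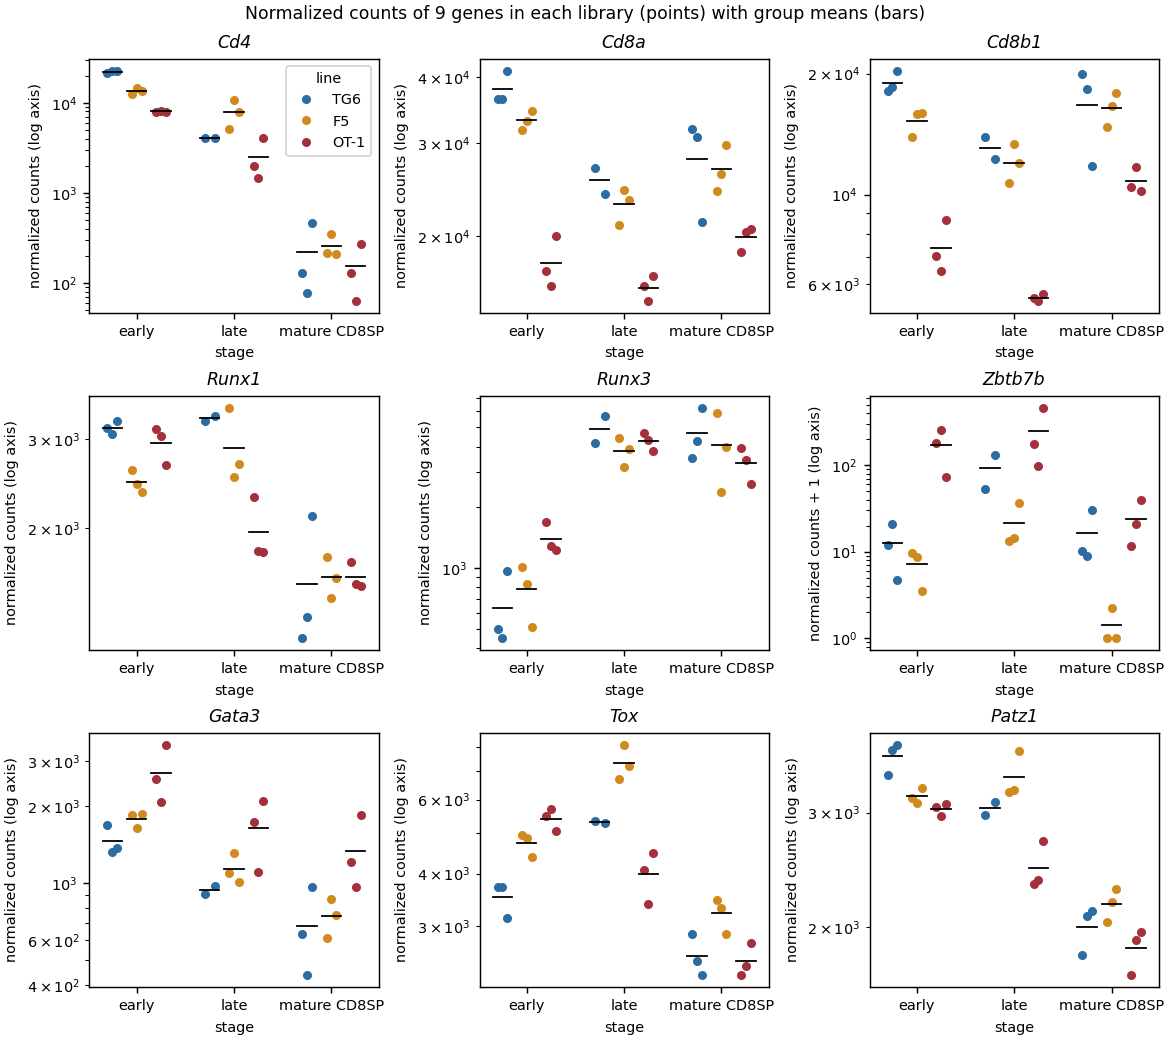
Normalized counts of the 9 genes on log axes (Zbtb7b as value + 1), by stage, with 1 point per library coloured by line and a bar at the group mean. The group mean of Cd4 falls by stage in every line, though the step from early to late in F5 was not called. Runx3 is high from the late stage on, and the OT-1 points of Cd8a and Cd8b1 lie below those of TG6 and F5 at each stage.

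Per kilobase of exon, Cd8a and Cd8b1 were the most abundant of the 9 genes in every group and Zbtb7b the least, and Cd4 moved from near the top to near the bottom. At the early stage of TG6, the level per kb was 12797 for Cd8b1, 10457 for Cd8a and 5484 for Cd4, against 620.4 for Patz1, 464 for Tox, 367 for Gata3, 262 for Runx1, 127 for Runx3 and 2.08 for Zbtb7b. The order of the middle genes depends on the length used, since with the longest transcript Runx1 (538) came above Gata3 (454). At the mature stage of TG6 the order had moved at both ends of the lineage pair. Runx3, at 933 per kb, then ranked behind only Cd8b1 and Cd8a, and Cd4, at 55.1 per kb, ranked just above Zbtb7b at 2.79. Zbtb7b had the lowest level per kb of the 9 genes in each of the 9 groups, with a highest mean of 43.6 per kb in OT-1 late.

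Cd4 (chromosome 6, 124864692 to 124888221, minus strand, GRCm38) fell from the first stage to the last in every line, and its early level was highest in TG6 and lowest in OT-1. In TG6 early the normalized counts were 21209, 22398 and 22731, in F5 early 12506, 14604 and 13502 and in OT-1 early 7980.0, 8114 and 7985. The 3 early groups did not overlap, with TG6 highest and OT-1 lowest. In the late libraries Cd4 was at 4084 and 4089 in TG6, 5160.2, 10664 and 7981 in F5 and 1963, 1455 and 4103 in OT-1. F5 was here the highest line, and the OT-1 range reached past that of TG6. In the mature libraries Cd4 was at 129, 77.1 and 461 in TG6, 216, 350.3 and 211 in F5 and 129, 62.8 and 268 in OT-1, and the lines overlapped. The fall from late to mature was 24.5-fold in TG6 (log2 fold change -4.61 ± 0.55, adjusted p = 4.44e-06), 30.1-fold in F5 (log2 fold change -4.91 ± 0.50, adjusted p = 6.16e-07) and 17.4-fold in OT-1 (log2 fold change -4.12 ± 0.50, adjusted p = 7.45e-06). Surface CD4 set the gate between these stages. From early to late, where both gates ask for CD4+ cells, Cd4 fell 5.41-fold in TG6 (log2 fold change -2.43 ± 0.55, adjusted p = 0.00205) and 3.53-fold in OT-1 (log2 fold change -1.82 ± 0.50, adjusted p = 0.00889), whereas F5 gave -0.83 ± 0.50 (adjusted p = 0.24). The TG6 and F5 steps differed by 1.61 ± 0.74 (adjusted p = 0.376), so a smaller fall in F5 was not shown. Between lines Cd4 was lower in OT-1 than in TG6 at the early stage (log2 fold change -1.46 ± 0.50, adjusted p = 0.0319) and lower than in F5 at the late stage (log2 fold change -1.74 ± 0.50, adjusted p = 0.0133). The first of these was lost without TG6 early replicate 1, 2 or 3 or OT-1 early replicate 1, 2 or 3 (0.0668 to 0.0766), and with no filter (0.0517). The second was lost without F5 late replicate 2 or OT-1 late replicate 1 or 2 (0.0515 to 0.0757). The fall from early to late in OT-1 was lost without OT-1 late replicate 2 (0.0574), the numbers in brackets being adjusted p-values here and below.

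The single spread shared by all groups bears on Cd4. Its early libraries agree closely within each line, whereas the mature libraries of TG6 span 129, 77.1 and 461. When the fit held no other groups than those compared, OT-1 early against F5 early (0.000536), F5 early against TG6 early (0.000889), the F5 fall from early to late (0.0364) and the difference of the TG6 and F5 steps (0.0183) passed the threshold.

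The CD8 genes stayed high through all 3 stages and were lower in OT-1. Cd8a (chromosome 6, 71373427 to 71379173, plus strand) was at 36458, 36421 and 41213 in TG6 early, 31839, 33129 and 34599 in F5 early and 17198, 16123 and 20020.5 in OT-1 early. The late libraries gave 27012 and 24097 in TG6, 21019, 24538 and 23449 in F5 and 16090.2, 15088 and 16812 in OT-1. The mature libraries gave 31943, 30826 and 21298 in TG6, 24422, 26304 and 29840.2 in F5 and 18709.7, 20413 and 20657 in OT-1. At each stage every OT-1 library lay below every TG6 and F5 library. Against TG6, Cd8a in OT-1 was 2.14-fold lower early (log2 fold change -1.10 ± 0.12, adjusted p = 5.84e-07), 1.6-fold lower late (log2 fold change -0.67 ± 0.14, adjusted p = 0.00142) and 1.39-fold lower when mature (log2 fold change -0.47 ± 0.12, adjusted p = 0.0163). Against F5 the log2 differences were -0.91 ± 0.12 (adjusted p = 2.02e-05) early, -0.52 ± 0.12 (adjusted p = 0.00301) late and -0.43 ± 0.12 (adjusted p = 0.0146) mature. F5 and TG6 were not called apart at any stage, and the early difference was -0.19 ± 0.12 (adjusted p = 0.41). Along the stages Cd8a fell from early to late in TG6 (log2 fold change -0.57 ± 0.14, adjusted p = 0.00281) and in F5 (log2 fold change -0.53 ± 0.12, adjusted p = 0.00217), and OT-1 gave -0.15 ± 0.12 (adjusted p = 0.407). From late to mature no line was called, with 0.11 ± 0.14 (adjusted p = 0.602) in TG6, 0.22 ± 0.12 (adjusted p = 0.222) in F5 and 0.32 ± 0.12 (adjusted p = 0.0614) in OT-1. The OT-1 step passed with a mean of at least 50 (0.0483) or a fit of the compared groups alone (0.00959). It also passed with a block for the replicate number within each line (0.0348). From early to mature Cd8a fell in TG6 (log2 fold change -0.46 ± 0.12, adjusted p = 0.00461), a call lost with a fit of the compared groups alone (0.0835), and OT-1 gave 0.17 ± 0.12 (adjusted p = 0.365). In F5 the same step gave -0.31 ± 0.12 (adjusted p = 0.0801), and 0.046 as adjusted p with a block for the replicate number within each line. Quantile normalization gave -0.46 (adjusted p = 0.0287). In F5 same-numbered libraries deviated together, but no label says that they came from 1 mouse.

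Cd8b1 (chromosome 6, 71322788 to 71337494, plus strand), the beta chain, lies next to Cd8a and followed it between lines. It was at 18092, 18499.7 and 20342 in TG6 early, 13945, 15899.9 and 15937 in F5 early and 7053, 6443 and 8632 in OT-1 early. The late libraries gave 13905 and 12254 in TG6, 10687, 13372 and 11959 in F5 and 5544, 5434 and 5658 in OT-1. The mature libraries gave 19994, 18279.8 and 11760.3 in TG6, 14746, 16607 and 17906 in F5 and 10426, 11731 and 10208 in OT-1. OT-1 was again below both other lines at every stage, though at the mature stage its highest library, replicate 2, was only just below TG6 replicate 3. Against TG6 the log2 differences of OT-1 were -1.37 ± 0.15 (adjusted p = 3.53e-07) early, -1.24 ± 0.16 (adjusted p = 1.22e-05) late and -0.59 ± 0.15 (adjusted p = 0.0116) mature, and against F5 -1.06 ± 0.15 (adjusted p = 2.79e-05), -1.11 ± 0.15 (adjusted p = 7.21e-06) and -0.60 ± 0.15 (adjusted p = 0.00494). Cd8b1 rose from late to mature, 1.94-fold in OT-1 (log2 fold change 0.96 ± 0.15, adjusted p = 6.99e-05) and 1.37-fold in F5 (log2 fold change 0.45 ± 0.15, adjusted p = 0.0303). TG6 gave 0.32 ± 0.16 (adjusted p = 0.176), and 0.00403 as adjusted p without TG6 mature replicate 3. Whether the 2 chains differed in this step was not tested. From early to late Cd8b1 fell in TG6 (log2 fold change -0.54 ± 0.16, adjusted p = 0.0174) and in OT-1 (log2 fold change -0.40 ± 0.15, adjusted p = 0.0453). F5 gave -0.35 ± 0.15 (adjusted p = 0.0812), which passed with quantile normalization (0.0473) or a fit of the compared groups alone (0.0468).

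Several CD8 calls were close to the threshold. The mature differences of OT-1 from TG6 were lost for Cd8a without TG6 mature replicate 1 or 2 or OT-1 mature replicate 1 (0.073 to 0.125) and for Cd8b1 without TG6 mature replicate 1 (0.102) or TG6 mature replicate 2 (0.0798). In a fit without the other groups they were lost at 0.227 and 0.207. Cd8a in mature OT-1 against F5 was lost without F5 mature replicate 3 (0.0868) or OT-1 mature replicate 1 (0.0611). The early to late falls were lost for Cd8a in TG6 without TG6 late replicate 2 (0.0603), for Cd8b1 in TG6 without TG6 early replicate 3 (0.0619) or TG6 late replicate 2 (0.17) and for Cd8b1 in OT-1 without OT-1 early replicate 1 or 3 or OT-1 late replicate 1, 2 or 3 (0.0714 to 0.222), the last also with no filter, total scaling, quantile normalization or no trend in the prior variance (0.0637 to 0.0782). The rise of Cd8b1 in F5 was lost without F5 late replicate 1 or 3 or F5 mature replicate 2 or 3 (0.0746 to 0.111) and with no filter, quantile normalization, no trend in the prior variance or a fit of the compared groups alone (0.0502 to 0.0744). The early and late differences of OT-1 from TG6 and from F5 kept their calls in every alternative for both genes.

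The ratio of alpha to beta chain within a library moved with line and stage. The log2 ratio of Cd8a to Cd8b1, not corrected for length, was 1.53 ± 0.05 (SD, n = 3) in OT-1 late, its highest, against 0.97 ± 0.01 (SD, n = 2) in TG6 late and 0.94 ± 0.06 (SD, n = 3) in F5 late. In mature libraries it was lower in every line, at 0.76 ± 0.09 in TG6, 0.71 ± 0.04 in F5 and 0.89 ± 0.12 in OT-1 (SD, n = 3 each). These ratios are a description and were not tested. The log2 ratio of Cd8a to Cd4 was highest in mature cells of every line. It was 0.78 ± 0.08, 1.30 ± 0.10 and 1.14 ± 0.17 in early TG6, F5 and OT-1 (SD, n = 3 each). In late cells it was 2.64 ± 0.12 in TG6 (SD, n = 2), 1.59 ± 0.41 in F5 and 2.81 ± 0.70 in OT-1, where the F5 libraries overlapped those of F5 early. In mature cells it was 7.37 ± 1.63, 6.73 ± 0.46 and 7.25 ± 1.03 (SD, n = 3 each). In early cells the mean ratio of OT-1 lay between those of TG6 and F5, and the OT-1 libraries overlapped those of F5.

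The 250 bases before the annotated start of Cd8a, from the RefSeq table on GRCm38.p6, are shown because Cd8a differed between lines at every stage. Capitals in the promoters printed here mark the RUNX core TGTGGT, read on either strand, where the other strand spells ACCACA. The stretch also overlaps an exon of the gene model Gm44174.
Cd8a, chr6:71373177-71373426, plus strand: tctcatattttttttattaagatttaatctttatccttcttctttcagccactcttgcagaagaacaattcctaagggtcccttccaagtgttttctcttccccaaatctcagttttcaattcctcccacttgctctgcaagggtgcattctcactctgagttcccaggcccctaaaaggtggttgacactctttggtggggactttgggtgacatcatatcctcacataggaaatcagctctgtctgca
Of the 9 genes, 6 matched the RefSeq table, with 10 windows in all. The core was found in 2 of the 10 windows, against 14.0% of all 32851 windows of this length, and the Cd8a window holds none. The GATA letters AGATAA, which the other strand spells TTATCT, were in 0 of the 10 windows, against 9.99% of all windows. Absence here says only that these letters are not in this stretch.

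Runx3 (chromosome 4, 135120652 to 135177990, plus strand) rose from early to late in every line and showed no called change afterwards. In the early libraries it was at 497, 448 and 961 in TG6, 1013, 834 and 512 in F5 and 1680.0, 1287 and 1231 in OT-1. Every OT-1 library was above every library of the other lines at this stage. The late libraries gave 4143 and 5643 in TG6, 4394, 3174 and 3873 in F5 and 4658, 4298 and 3805 in OT-1, and the mature ones 3509, 4256 and 6235 in TG6, 5860.4, 2384 and 3988 in F5 and 3918, 3433 and 2622 in OT-1. From late on the 3 lines overlapped, and within each line no early library reached the late range. Runx3 rose from early to late 8.07-fold in TG6 (log2 fold change 3.01 ± 0.35, adjusted p = 9.91e-07), 4.99-fold in F5 (log2 fold change 2.32 ± 0.31, adjusted p = 7.86e-06) and 3.06-fold in OT-1 (log2 fold change 1.61 ± 0.31, adjusted p = 0.000517). From late to mature the log2 differences were -0.09 ± 0.35 (adjusted p = 0.882) in TG6, 0.01 ± 0.31 (adjusted p = 0.988) in F5 and -0.37 ± 0.31 (adjusted p = 0.411) in OT-1. At the early stage Runx3 was 2.31-fold higher in OT-1 than in TG6 (log2 fold change 1.21 ± 0.31, adjusted p = 0.00586), and against F5 the difference was 0.87 ± 0.31 (adjusted p = 0.0694). The latter passed without F5 early replicate 1 (0.0425) and in a fit of those groups alone (0.0371). The rise in OT-1 differed from that in TG6 by -1.40 ± 0.46 (adjusted p = 0.154), which did not pass the test without a replicate block.

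The window before the outer start of Runx3, from which the form found in mature T cells is known to be made, holds the RUNX core 2 times, starting 134 and 126 bases before the start. It also overlaps an exon of the gene model Gm16225.
Runx3, chr4:135120395-135120644, plus strand: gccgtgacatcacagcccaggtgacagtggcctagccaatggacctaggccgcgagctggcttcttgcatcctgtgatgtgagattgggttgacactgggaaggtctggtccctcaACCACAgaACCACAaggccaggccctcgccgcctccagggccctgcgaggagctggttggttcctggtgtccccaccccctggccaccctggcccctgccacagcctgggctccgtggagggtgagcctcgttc
The window before the inner start of Runx3 holds none. The values here are sums over a gene, so the output of the 2 starts cannot be told apart.

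Runx1 (chromosome 16, 92601466 to 92826149, minus strand), which is known to help silence Cd4 in immature thymocytes, fell from early to mature in every line, with log2 fold changes of -1.06 ± 0.15 (adjusted p = 8.98e-06) in TG6, -0.63 ± 0.15 (adjusted p = 0.00512) in F5 and -0.88 ± 0.15 (adjusted p = 0.000189) in OT-1. The early libraries gave 3143, 3069 and 3250.2 in TG6, 2607, 2442 and 2351 in F5 and 3132, 3039 and 2658 in OT-1. The late libraries gave 3254 and 3327 in TG6, 3454, 2521 and 2673 in F5 and 2308, 1800.0 and 1793 in OT-1, where OT-1 lay below both other lines without overlap. Mature libraries were at 1213, 1334 and 2115 in TG6, 1749.8, 1456 and 1594 in F5 and 1713, 1551 and 1536 in OT-1, with TG6 replicate 3 the highest. From early to late Runx1 was called in OT-1 (log2 fold change -0.59 ± 0.15, adjusted p = 0.00666), against 0.06 ± 0.17 (adjusted p = 0.849) in TG6 and 0.21 ± 0.15 (adjusted p = 0.345) in F5. It fell from late to mature in TG6 (log2 fold change -1.13 ± 0.17, adjusted p = 6.61e-05) and in F5 (log2 fold change -0.84 ± 0.15, adjusted p = 0.000395), against -0.29 ± 0.15 (adjusted p = 0.18) in OT-1. Without a replicate block, the test of these differences between lines did not pass the threshold. For the first step OT-1 differed from TG6 by -0.65 ± 0.23 (adjusted p = 0.198) and from F5 by -0.80 ± 0.22 (adjusted p = 0.0647), and for the second step from TG6 by 0.84 ± 0.23 (adjusted p = 0.0903) and from F5 by 0.55 ± 0.22 (adjusted p = 0.293). Without TG6 mature replicate 3 the second step against TG6 became 0.00182. Without F5 late replicate 2 the first step against F5 became 0.0441. Total scaling brought these same 2 under the threshold (0.0321 and 0.0432), and a fit of their groups alone did so for OT-1 against TG6 in the first step (0.0299). The TG6 fall from late to mature was lost with a fit of the compared groups alone (0.0544). At the late stage itself Runx1 was lower in OT-1 than in TG6 (log2 fold change -0.75 ± 0.17, adjusted p = 0.00418) and in F5 (log2 fold change -0.55 ± 0.15, adjusted p = 0.0121), calls lost without TG6 late replicate 2 (0.0521) for TG6 and without F5 late replicate 1 or OT-1 late replicate 2 or 3 (0.0521 to 0.0684) for F5.

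The log2 ratio of Runx3 to Runx1 within a library, not corrected for length, was higher late than early in every line. It was -2.40 ± 0.56, -1.70 ± 0.44 and -1.08 ± 0.17 in early TG6, F5 and OT-1 (SD, n = 3 each). At the late stage it was 0.56 ± 0.29 in TG6 (SD, n = 2), 0.40 ± 0.11 in F5 and 1.12 ± 0.12 in OT-1, and at the mature stage 1.59 ± 0.07, 1.26 ± 0.52 and 1.04 ± 0.23 (SD, n = 3 each). The mean ratio of OT-1 lay about level between late and mature, whereas the means of TG6 and F5 were higher in mature cells. These ratios were not tested.

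**Figure D2:**
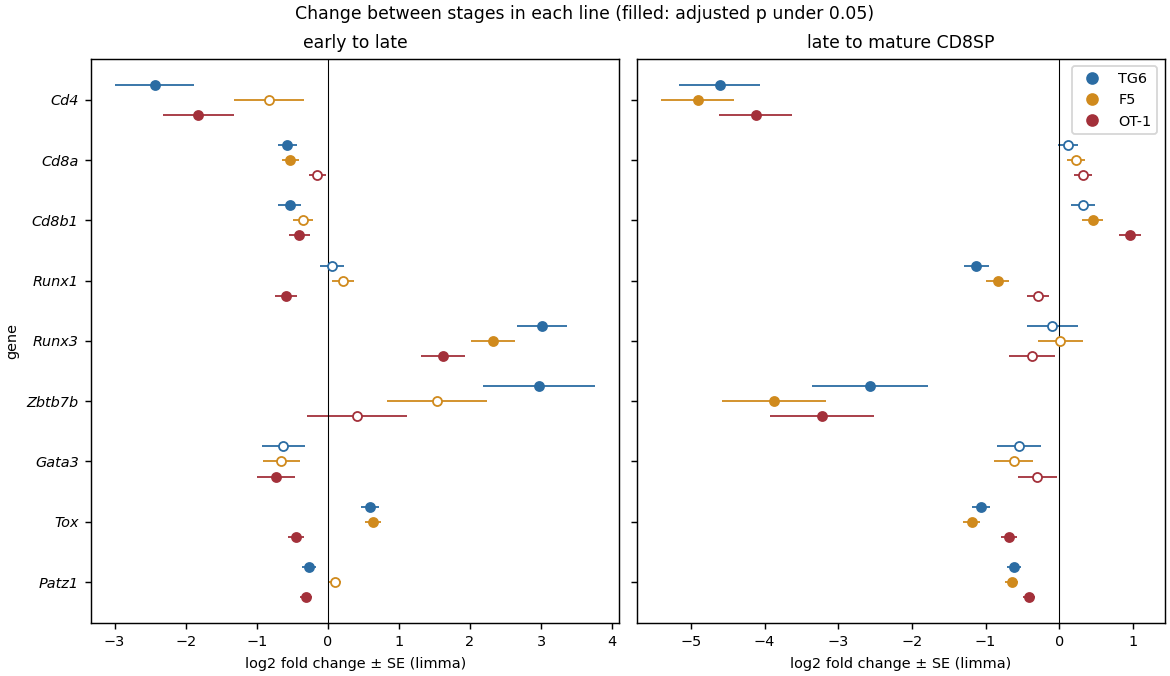
Log2 fold change of each gene with its SE (limma, bars) from early to late (left) and from late to mature (right), with 1 point per line, filled where the adjusted p was under 0.05. Runx3 changes in the left panel only, Zbtb7b falls in the right panel in all 3 lines, and the Tox points of OT-1 and of the other lines lie on opposite sides of 0 in the left panel.

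Zbtb7b (chromosome 3, 89377644 to 89394776, minus strand), the gene of the CD4 lineage factor ThPOK, was low throughout, and at the early stage it was highest in OT-1. In early libraries it was at 11, 20.1 and 3.71 in TG6, 8.59, 7.61 and 2.47 in F5 and 179.6, 254 and 72.7 in OT-1. Every OT-1 library was above every other early library. Late libraries gave 52.4 and 129 in TG6, 12.3, 13.5 and 35.2 in F5 and 175, 96 and 461 in OT-1, and mature ones 9.28, 7.79 and 29.7 in TG6, 0, 1.21 and 0 in F5 and 10.5, 20.1 and 38.8 in OT-1. Libraries of a group differed by up to several fold, and in F5 mature the gene was listed at 0 in replicates 1 and 3. At the early stage OT-1 exceeded TG6 by 3.82 ± 0.70 (adjusted p = 0.000336) and F5 by 4.51 ± 0.70 (adjusted p = 0.000111) on the log2 scale. At the late stage OT-1 exceeded F5 by 3.38 ± 0.70 (adjusted p = 0.00117), and the difference from TG6 was 1.26 ± 0.79 (adjusted p = 0.306). These 3 calls held in every alternative. Zbtb7b fell from late to mature in TG6 (log2 fold change -2.57 ± 0.79, adjusted p = 0.0216), F5 (log2 fold change -3.87 ± 0.70, adjusted p = 0.000357) and OT-1 (log2 fold change -3.22 ± 0.70, adjusted p = 0.00204). It rose from early to late in TG6 (log2 fold change 2.97 ± 0.79, adjusted p = 0.00693), while F5 gave 1.53 ± 0.70 (adjusted p = 0.115) and OT-1 0.41 ± 0.70 (adjusted p = 0.726). Values against F5 mature depend on the amount added before the log and are no bound. With 1 added, mature OT-1 lay 4.03 ± 0.70 (adjusted p = 0.000327) above F5, and F5 differed from TG6 by -3.43 ± 0.70 (adjusted p = 0.00265), a call lost with a pseudocount of 5 (0.0664). The fall in TG6 was lost with a pseudocount of 0.1 (0.0686) or a fit of the compared groups alone (0.0904) and without TG6 mature replicate 1 or 2 (0.0583 to 0.064). Leaving out TG6 late replicate 2, which leaves 1 library in that group, ended both TG6 calls. The rise was then 2.33 and the fall -1.93 on the log2 scale. From early to mature F5 gave -2.34 ± 0.70 (adjusted p = 0.0208), lost with a pseudocount of 5 (0.247) and without F5 early replicate 1 or 2 or F5 mature replicate 1 or 3 (0.0749 to 0.0816). In these F5 groups no library exceeded 8.59. In a fit of them alone Zbtb7b did not pass the filter on low values and was not tested. From early to mature OT-1 gave -2.82 ± 0.70 (adjusted p = 0.00488).

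Of the 8 genes of CD4 helper and regulatory cells, OT-1 against TG6 gave 2 up and 2 down early, 2 up and 1 down late and 2 up and 1 down mature, where 27.8%, 15.5% and 9.74% of all genes were called. The CD40 ligand gene Cd40lg, which helper T cells use, in OT-1 exceeded TG6 by 3.80 early, 2.51 late and 3.70 mature on the log2 scale. For Foxp3, the factor of regulatory T cells, the same differences were -1.82, -2.12 and -2.60, and Cd40lg and Foxp3 were called at each stage. Foxp3 did not exceed 46.9 and Cd40lg did not exceed 237 in any library. Whether CD4 lineage cells had a part in the Zbtb7b values was not tested.

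The window before the inner start of Zbtb7b holds the RUNX core 1 time, 89 bases before the start, and it is shown beside that of Runx3 because each factor represses the other's gene.
Zbtb7b, chr3:89387672-89387921, minus strand: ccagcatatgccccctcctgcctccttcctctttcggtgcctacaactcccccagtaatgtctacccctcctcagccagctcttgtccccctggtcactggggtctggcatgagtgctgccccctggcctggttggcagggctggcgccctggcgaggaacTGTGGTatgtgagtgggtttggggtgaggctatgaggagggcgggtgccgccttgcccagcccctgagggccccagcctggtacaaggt
The window before the outer start of Zbtb7b holds none. A match of 6 letters is a description and not evidence of binding.

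The log2 ratio of Runx3 to Zbtb7b ranked the lines in the same order at each stage, with F5 highest and OT-1 lowest. In early libraries it was 5.82 ± 1.68 in TG6, 6.84 ± 0.32 in F5 and 3.21 ± 0.86 in OT-1 (SD, n = 3 each). In late libraries it was 5.86 ± 0.59 in TG6 (SD, n = 2), 7.63 ± 0.82 in F5 and 4.41 ± 1.24 in OT-1 (SD, n = 3 each). In mature libraries it was 8.33 ± 0.63 in TG6, 11.52 ± 1.28 in F5 and 7.27 ± 1.19 in OT-1 (SD, n = 3 each). The SDs of neighbouring lines overlap for TG6 and F5 early, for TG6 and OT-1 late and for TG6 and OT-1 mature, so that order is only partly resolved, and the F5 mature value rests on the amount added to values at 0.

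**Figure D3:**
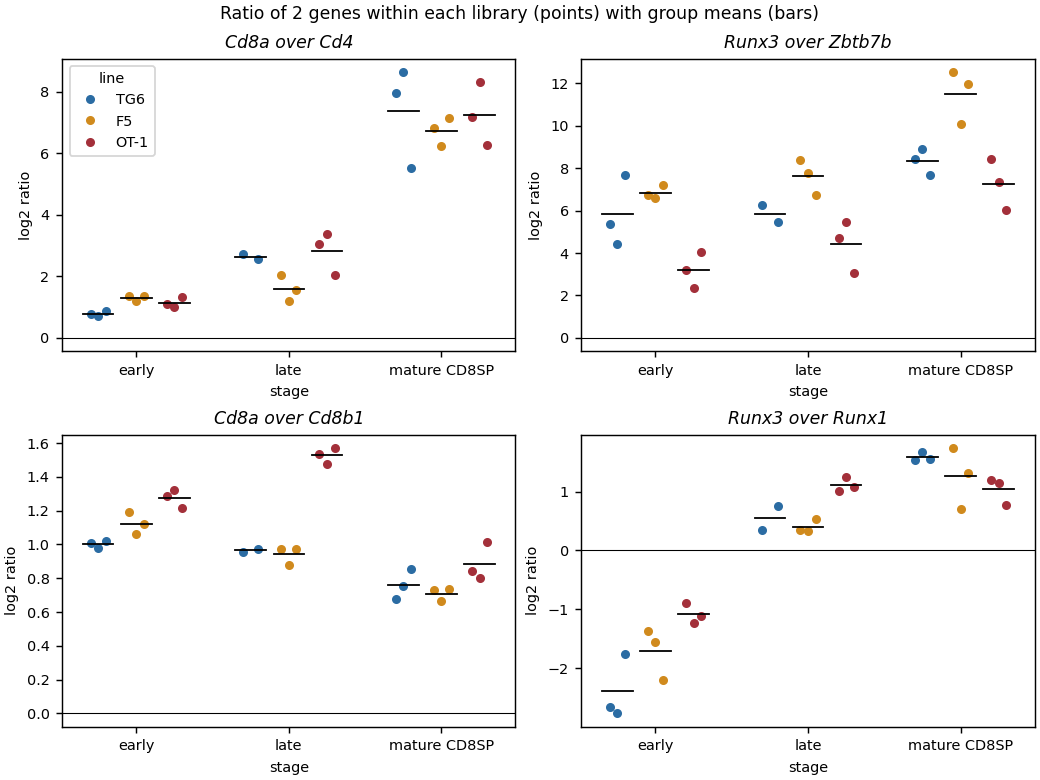
Log2 ratio of 2 genes within each library, by stage, with 1 point per library coloured by line and a bar at the group mean. Cd8a over Cd4 rises steeply at the mature stage, Runx3 over Zbtb7b is lowest in OT-1 at each stage, Cd8a over Cd8b1 peaks in OT-1 late, and Runx3 over Runx1 is higher late than early in each line. The ratios are not corrected for length, so 0 does not mark equal levels.

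Gata3 (chromosome 2, 9857078 to 9890034, minus strand), which is needed for CD4 lineage choice and acts upstream of Zbtb7b, fell from early to mature in every line and had its highest mean in OT-1 at each stage. The early libraries gave 1689, 1319 and 1371 in TG6, 1839.7, 1645 and 1869 in F5 and 2541, 2076 and 3474 in OT-1. The late ones gave 906 and 975 in TG6, 1097, 1308 and 1013 in F5 and 1735, 1106 and 2088 in OT-1, and the mature ones 631, 437 and 969 in TG6, 613, 869 and 753 in F5 and 1212, 963 and 1851 in OT-1. The early OT-1 libraries lay above all early TG6 and F5 libraries, and in mature cells OT-1 overlapped TG6 by 1 library. From early to mature Gata3 fell 2.25-fold in TG6 (log2 fold change -1.17 ± 0.26, adjusted p = 0.00131), 2.41-fold in F5 (log2 fold change -1.27 ± 0.26, adjusted p = 0.00127) and 2.04-fold in OT-1 (log2 fold change -1.03 ± 0.26, adjusted p = 0.0063). Of the single steps, the fit called the one from early to late in OT-1 (log2 fold change -0.73 ± 0.26, adjusted p = 0.0453). The fit with a block for the replicate number within each line also called early to late in F5 (0.00852, against 0.0734 without it). That fit called late to mature in F5 (0.0143 against 0.108) and in TG6 (0.026 against 0.203). The TG6 numbers were not taken as pairs. A fit of the compared groups alone called early to late in TG6 (0.0063) and F5 (0.00643). Gata3 in OT-1 exceeded that in TG6 at the early stage (log2 fold change 0.86 ± 0.26, adjusted p = 0.019) and the mature stage (log2 fold change 1.00 ± 0.26, adjusted p = 0.0188), with 0.76 ± 0.30 (adjusted p = 0.0907) at the late stage, which passed without OT-1 late replicate 2 (0.0312), and it exceeded that in F5 at the mature stage (log2 fold change 0.81 ± 0.26, adjusted p = 0.0314). The early call was lost without TG6 early replicate 2 or 3 or OT-1 early replicate 3 (0.0539 to 0.0994). The mature call against TG6 was lost without TG6 mature replicate 1 or 2 or OT-1 mature replicate 3 (0.0707 to 0.152) and with a fit of the compared groups alone (0.201), and that against F5 without F5 mature replicate 1 or 3 or OT-1 mature replicate 1 or 3 (0.0577 to 0.174) and with no filter, total scaling or quantile normalization (0.051 to 0.0766). The OT-1 step from early to late was lost without OT-1 early replicate 1 or 3 or OT-1 late replicate 1 or 2 (0.069 to 0.253) and with no filter, quantile normalization, no trend in the prior variance or a fit of the compared groups alone (0.0501 to 0.0729), and the OT-1 fall from early to mature without OT-1 mature replicate 2 (0.0513).

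Tox (chromosome 4, 6686353 to 6991557, minus strand), an HMG box factor that signals of positive selection induce and that the CD4 lineage needs, moved in opposite directions between lines in the first step. The early libraries gave 3723, 3717 and 3141 in TG6, 4930.4, 4869 and 4384 in F5 and 5477, 5694 and 5042 in OT-1, so that OT-1 was highest and TG6 lowest with no overlap. The late libraries gave 5344 and 5265 in TG6, 6708, 8104 and 7213 in F5 and 4088, 3387 and 4486 in OT-1, and here OT-1 was lowest, again with no overlap. The mature libraries gave 2881, 2480.3 and 2301 in TG6, 3470.3, 3315 and 2871 in F5 and 2294, 2408 and 2729.6 in OT-1. From early to late Tox rose 1.51-fold in TG6 (log2 fold change 0.59 ± 0.13, adjusted p = 0.00105) and 1.55-fold in F5 (log2 fold change 0.63 ± 0.11, adjusted p = 0.000196), and fell 1.36-fold in OT-1 (log2 fold change -0.45 ± 0.11, adjusted p = 0.00503). The step of OT-1 differed from that of TG6 by -1.04 ± 0.17 (adjusted p = 0.00139) and from that of F5 by -1.08 ± 0.16 (adjusted p = 0.000619). Both differences kept their call in every alternative, leaving out each library included. Only 2.04% and 1.68% of the genes tested were called in these 2 comparisons. From late to mature Tox fell in all lines, 2.09-fold in TG6 (log2 fold change -1.06 ± 0.13, adjusted p = 3.69e-06), 2.28-fold in F5 (log2 fold change -1.19 ± 0.11, adjusted p = 2.81e-07) and 1.6-fold in OT-1 (log2 fold change -0.68 ± 0.11, adjusted p = 0.000162). Between lines OT-1 exceeded TG6 early by 0.62 ± 0.11 (adjusted p = 0.000297) on the log2 scale. Against F5 early the difference was 0.19 ± 0.11 (adjusted p = 0.287), which did not pass. At the later stages OT-1 gave -0.42 ± 0.13 (adjusted p = 0.0258) from TG6 late, -0.89 ± 0.11 (adjusted p = 4.59e-06) from F5 late and -0.38 ± 0.11 (adjusted p = 0.0192) from F5 mature. F5 exceeded TG6 early by 0.43 ± 0.11 (adjusted p = 0.0234) and late by 0.46 ± 0.13 (adjusted p = 0.0319). The late difference of OT-1 from TG6 was lost without TG6 late replicate 1 or 2 or OT-1 late replicate 2 (0.126 to 0.142), and the mature one from F5 without F5 mature replicate 1 or OT-1 mature replicate 1 or 2 (0.0626 to 0.084) and with a fit of the compared groups alone (0.0514). The differences of F5 from TG6 were lost without TG6 early replicate 3 or F5 early replicate 1 or 2 (0.0891 to 0.136) early, and without TG6 late replicate 1 or 2 or F5 late replicate 2 or 3 (0.0649 to 0.213) and with no filter, total scaling, quantile normalization, no trend in the prior variance or a fit of the compared groups alone (0.0522 to 0.119) late.

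Patz1 (chromosome 11, 3288874 to 3309083, plus strand) encodes MAZR, which represses Cd8 in immature cells and Zbtb7b in CD8 cells. Its libraries agreed closely. Early libraries gave 3424, 3746 and 3819 in TG6, 3164, 3102 and 3273 in F5 and 3060.4, 2962 and 3093 in OT-1. Late libraries gave 2977 and 3121 in TG6, 3225, 3254 and 3734 in F5 and 2332, 2363 and 2711 in OT-1, and mature ones 1807, 2079 and 2118 in TG6, 2035, 2185 and 2291 in F5 and 1684, 1908 and 1963 in OT-1. No mature library reached the range of its line's late libraries. Patz1 fell from late to mature 1.53-fold in TG6 (log2 fold change -0.61 ± 0.10, adjusted p = 8.92e-05), 1.57-fold in F5 (log2 fold change -0.65 ± 0.09, adjusted p = 1.37e-05) and 1.33-fold in OT-1 (log2 fold change -0.41 ± 0.09, adjusted p = 0.00134). From early to late it fell in TG6 (log2 fold change -0.26 ± 0.10, adjusted p = 0.0479) and OT-1 (log2 fold change -0.30 ± 0.09, adjusted p = 0.0116), against 0.10 ± 0.09 (adjusted p = 0.46) in F5. Patz1 was lower in OT-1 late, with differences of -0.46 ± 0.09 (adjusted p = 0.000371) from F5 and -0.31 ± 0.10 (adjusted p = 0.0332) from TG6, and in OT-1 early, with -0.27 ± 0.09 (adjusted p = 0.0236) from TG6. The mature difference from F5 was -0.23 ± 0.09 (adjusted p = 0.0563), and it passed with a mean of at least 50, total scaling or quantile normalization (0.00531 to 0.0425), total scaling giving a log2 difference of -0.37. It also passed with a block for the replicate number shared by the lines (0.0161). The TG6 step from early to late was lost without TG6 early replicate 2 or 3 or TG6 late replicate 1 or 2 (0.114 to 0.246) and with no filter, total scaling, quantile normalization or no trend in the prior variance (0.0523 to 0.0908), and that of OT-1 without OT-1 late replicate 1 (0.06) or OT-1 late replicate 2 (0.0526). The line calls against TG6 were lost without TG6 late replicate 1 or 2 or OT-1 late replicate 1 or 2 (0.1 to 0.218) and with no filter, no trend in the prior variance or a fit of the compared groups alone (0.0533 to 0.0542) late, and without TG6 early replicate 2 or 3 or OT-1 early replicate 1 or 2 (0.0524 to 0.08) early.

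**Figure D4:**
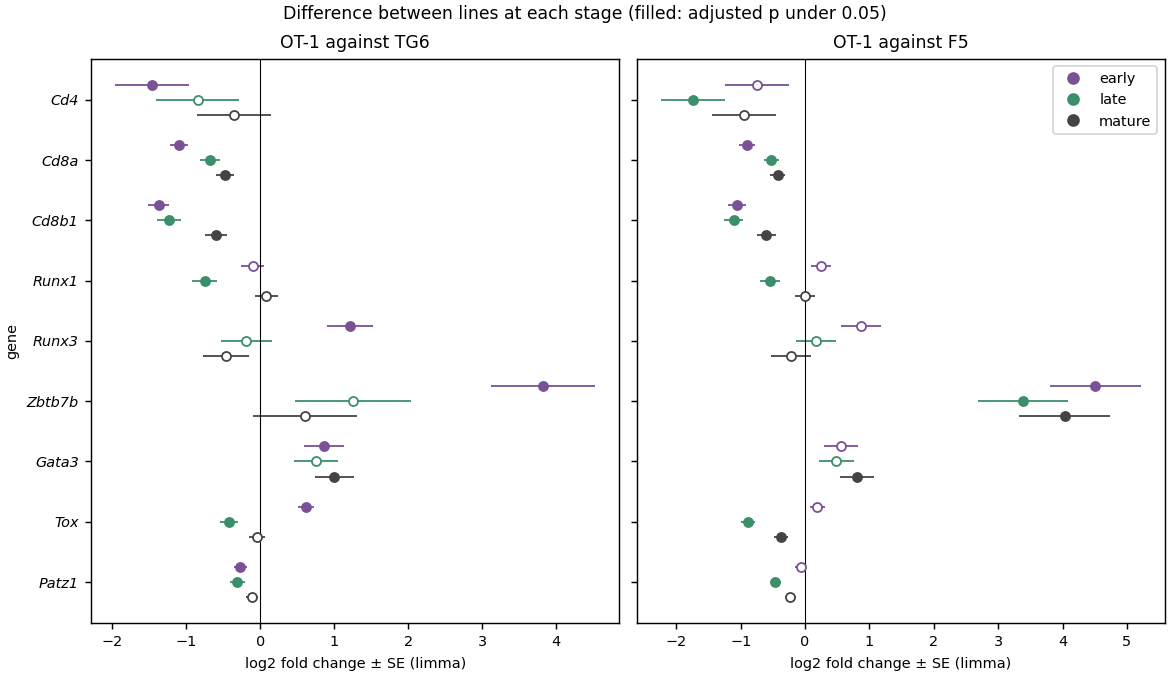
Log2 difference of OT-1 from TG6 (left) and from F5 (right) with its SE (limma, bars), with 1 point per stage, filled where the adjusted p was under 0.05. Cd8a and Cd8b1 lie below 0 at all 3 stages in both panels, Zbtb7b lies above 0, and Tox changes side between early and late in the left panel.

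Counted over the 9 genes, most were called between stages, apart from the step early to late in F5, whose share was near that of all genes. From early to late the calls were 7 of 9 in TG6 (3 up and 4 down), 3 in F5 (2 up and 1 down) and 7 in OT-1 (1 up and 6 down), against 25.4%, 26.7% and 26.7% of all genes. From late to mature they were 5 in TG6 (0 up and 5 down), 6 in F5 (1 up and 5 down) and 5 in OT-1 (1 up and 4 down), against 22.3%, 20.5% and 24.4%. From early to mature they were 7 in TG6 (1 up and 6 down), 7 in F5 (1 up and 6 down) and 8 in OT-1 (2 up and 6 down), against 34.6%, 19.6% and 23.2%. The median log2 fold change of the 9 genes from late to mature was -0.61 in TG6, -0.65 in F5 and -0.37 in OT-1, where the median over all genes tested lay between -0.04 and 0.04 in all 24 comparisons.

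Between lines, the count depended on the pair. OT-1 against TG6 gave 8 calls early (4 up and 4 down), 5 late (0 up and 5 down) and 3 mature (1 up and 2 down), against 27.8%, 15.5% and 9.74% of all genes. OT-1 against F5 gave 3 early (1 up and 2 down), 7 late (1 up and 6 down) and 5 mature (2 up and 3 down), against 12.7%, 24.0% and 23.3%. F5 against TG6 gave 1 call at each stage, Tox early, Tox late and Zbtb7b mature, against 6.46%, 4.97% and 6.64%. In the fit without a replicate block, the differences of a step between lines were called for Tox alone, as above. In the step early to late of F5 against TG6, 0 of 9 genes were called, against 2.08% of all genes. In the step late to mature, 0 of 9 were called for each pair of lines. The shares of all genes called there were 1.17%, 0.843% and 0.116% for OT-1 against TG6, OT-1 against F5 and F5 against TG6. At limma's unadjusted p under 0.05 there were 2 of the 9 genes in the former comparison. There were 3, 3 and 0 in the step late to mature. The share of all genes at that unadjusted p was not computed, so these counts have no background beside them. The comparisons share groups, so their counts are not independent.

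The order of the 9 group means of a gene was only partly resolved. Of the 8 pairs of neighbours in that order, the library ranges overlapped in 4 for Cd4, in 5 for Cd8b1, Runx1 and Gata3, and in 6 for Cd8a, Runx3, Zbtb7b, Tox and Patz1. Among the gaps without overlap were those between TG6 early, F5 early and OT-1 early for Cd4, between F5 late and OT-1 mature for Cd8a, between OT-1 mature, OT-1 early and OT-1 late for Cd8b1, and between OT-1 mature and OT-1 early for Runx3.

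Genes that work with these factors are given next, with log2 fold changes that passed the test in all 3 lines or stages named. All lists are read against the medians and shares of all genes above. Of 20 partners and upstream regulators, all tested, the calls from late to mature were 1 up and 6 down in TG6, 1 up and 6 down in F5 and 2 up and 5 down in OT-1, with median log2 fold changes of -0.01, -0.12 and -0.15. Satb1, a chromatin organiser of thymocytes, fell in this step, with log2 fold changes of -1.52, -1.36 and -1.14 in TG6, F5 and OT-1, the order kept below. Runx2, another member of the RUNX family, also fell, with -1.24, -1.26 and -1.48, and Bcl11b, which keeps cells in the T lineage, with -0.77 in TG6 and -0.85 in OT-1, and with a larger fitted fall in F5. The factors Tcf7 (-0.63, -0.48 and -0.45) and Ets1 (-0.66, -0.41 and -0.51) fell as well. Myb, which is known to act upstream of Gata3, fell from early to late, with log2 fold changes of -2.13, -1.20 and -1.87, as did the E protein gene Tcf12 (-1.27, -0.70 and -0.59) and Smarca4 (-0.82, -0.67 and -0.53), the ATPase of a chromatin remodelling complex. Between lines Tox2, a relative of Tox, in OT-1 exceeded TG6 early, late and mature by 2.50, 2.77 and 2.62, and Ikzf1 by 0.67, 0.61 and 0.53. Lck, the kinase that the coreceptors carry, was lower, with differences of -0.48, -0.37 and -0.24.

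Cytokine signals through the common gamma chain are known to induce Runx3. Of 10 genes of this input, all tested, the calls from early to late were 4 up and 4 down in TG6, 5 up and 1 down in F5 and 6 up and 1 down in OT-1, with medians of 0.18, 0.36 and 0.49. Runx3 rose in the same step, and a link between these genes and that rise was not tested. The receptor gene Il7r rose by 5.87 in TG6, 2.25 in F5 and 2.82 in OT-1 on the log2 scale. The shared receptor chain Il2rg rose by 0.94, 0.66 and 0.78, and the kinases Jak1 by 0.96, 0.91 and 0.59 and Jak3 by 1.91, 1.12 and 1.67. Socs1, an inhibitor of this pathway, fell from early to mature, with log2 fold changes of -2.15, -1.56 and -1.25. The signal carriers Stat5a (-0.74, -0.37 and -0.40) and Stat5b (-0.95, -0.62 and -0.94) also fell from early to mature, and Stat5b was lower in OT-1 than in TG6 at all 3 stages (-0.31, -0.30 and -0.30).

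Of the 9 genes of the CD8 programme, all tested, the calls from early to mature were 8 up and 0 down in TG6, 5 up and 0 down in F5 and 8 up and 0 down in OT-1, with medians of 5.52, 1.31 and 4.34. Nkg7, a granule gene, rose from early to late by 5.85, 4.39 and 4.21, and the receptor chain Il2rb by 5.30, 2.54 and 3.65. Cst7 rose by 4.27, 2.41 and 3.37 in the same step, and the perforin gene Prf1 by 1.21, 1.39 and 1.35. The early libraries of Cst7 lay at 0 to 3.87 in TG6 and 0.971 to 7.79 in F5. Its folds there depend on the amount added before the log. Itgae, the CD103 gene and a known target of Runx3, rose from late to mature by 3.18, 6.46 and 1.35. Tbx21 was called lower from early to late and higher from late to mature in all 3 lines, but it did not exceed 27.1 in any library and was listed at 0 in both TG6 late libraries and in 2 of 3 late libraries of F5 and of OT-1, so no fold is given.

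Of the 8 genes of CD4 helper and regulatory cells, all tested, the calls from early to late were 4 up and 1 down in TG6, 2 up and 1 down in F5 and 3 up and 1 down in OT-1, with medians of 0.72, 0.16 and 0.98. Cd40lg rose by 3.26, 3.36 and 1.96, and the costimulator Icos by 2.15, 1.75 and 1.68. The early libraries of Cd40lg were low, at 1.94 to 4.95 in TG6 and 2.91 to 11.7 in F5. Il2ra fell, with log2 fold changes of -2.57, -1.38 and -1.99. Cxcr5 rose from early to mature by 1.80, 1.79 and 1.59, but it did not exceed 33.9 in any library. Its F5 early libraries lay at 0.979 to 2.96. Maf in OT-1 exceeded TG6 early, late and mature by 1.98, 1.69 and 3.27.

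For each of the 9 genes the closest genes by Pearson r over the 9 group means of log2(value + 1) were looked up, as a description. The 9 points share libraries and 9 points leave room for high r among 16372 genes. Cd4 was followed most closely by Trim24 (r = 0.996), Patz1 by Camk4 (0.993), Stat5b (0.99) and Mcu (0.988), and Runx3 by Card6 (0.993), Srsf12 (0.991) and Lime1 (0.99). Gata3 was followed by Fiz1 (0.977), Runx1 by Gnb5 (0.98), Cd8b1 by Hist2h4 (0.974) and Cd8a by Pomgnt2 (0.968). Tox was followed by Trdv2-2 (0.957) and Zbtb7b by Rrad (0.943).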

How the data were processed

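RNA of sorted thymocytes was sequenced in 26 libraries. Per the labels, reads were trimmed (Trimmomatic 0.32), mapped to mm10 (Bowtie 2, 2.3.2) and quantified per gene (RSEM 1.2.31). The authors deposited normalized counts, a signal per gene scaled by the median of ratios of DESeq2. Strand settings are not given in the sources used here. Genes on the opposite strand overlap Gata3, Patz1, Runx1, Runx3, Tox and Zbtb7b, so reads of these pairs may be mixed. Values above 0 came out as whole reads (within 0.01) in 44.9 to 47.0% of cases, so reads were not recovered and no count test was run.

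Values were analysed as log2(value + 1) with limma (3.58.1, R 4.3.3) for genes that reached 10 in 2 or more libraries. The fit held 1 mean per group, a prior variance following mean level and 17 residual degrees of freedom, and the 24 comparisons were adjusted separately. The fit was tested on simulated data. Ratios used the same pseudocount. Levels per kb used the joined exon length of GENCODE vM21. Alternatives were quantile normalization or scaling to the total, a pseudocount of 0.1 or 5, a stricter filter (mean of 50 or more) or none, no trend in the prior variance, only the groups compared, a replicate block, leaving out each library, and the longest transcript for length.

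The 9 genes and the lists were chosen with earlier results of these data known. A list gene was named if called in 1 direction at 1 step in all 3 lines, or for OT-1 against TG6 at all 3 stages. Replicate numbers were taken to pair libraries of a line if every same-numbered pair correlated over 0.1 in its deviations from group means. Only F5 met this (9 pairs, 0.106 to 0.340). No label says that same-numbered libraries share a mouse.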

Additional observations from a re-analysis of the deposited data

Results flagged for a closer look

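The change of Tox from early to late positive selection differed between lines in a test of the difference itself. It was -1.04 ± 0.17 (log2, SE, limma adjusted p = 0.00139) for OT-1 against TG6 and -1.08 ± 0.16 (adjusted p = 0.000619) for OT-1 against F5. All 3 OT-1 late libraries lay below all 3 OT-1 early libraries, and all late libraries of TG6 and F5 lay above their early ones. Groups of 2 or 3 libraries were not tested for single libraries far from the rest.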

How the results depend on the processing

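No fold change of the 9 genes turned its direction past the threshold under any alternative. Of 91 calls, 55 were between stages, 34 between lines and 2 in differences of a step, and 41, 17 and 2 of these held in every alternative. Counts of called genes moved by over 1.5 times as follows. With a pseudocount of 5, F5 against TG6 mature gave 0 in place of 1. F5 against TG6 late gave 0 in place of 1 with no filter, total scaling, quantile normalization, no trend or only the groups compared. Total scaling gave 2 in place of 1 for OT-1 against F5 in the step early to late and 1 in place of 0 for OT-1 against TG6 in the step late to mature. With only the groups compared the counts were 6 in place of 3 (F5 early to late), 3 in place of 5 (TG6 late to mature), 5 in place of 3 (OT-1 against F5 early), 4 in place of 1 (F5 against TG6 early), 0 in place of 3 (OT-1 against TG6 mature), 0 in place of 1 (F5 against TG6 mature, where Zbtb7b did not pass the filter on low values and was not tested), 2 in place of 1 (OT-1 against TG6, step early to late) and 1 in place of 0 (F5 against TG6, step early to late). That fit takes its spread from fewer libraries. Total scaling brought the median of all genes to -0.13 in OT-1 against TG6 late and in OT-1 against F5 mature.

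The replicate block gave 3 in place of 1 for both OT-1 against TG6 and OT-1 against F5 in the step early to late, and 1 in place of 0 for both in the step late to mature. Runx1 was among these calls in the step early to late (0.0157 against TG6 and 0.00747 against F5, adjusted p), beside Runx3 against TG6 (0.00453) and Patz1 against F5 (0.0159). From late to mature it called Runx1 against TG6 (0.00497) and Tox against F5 (0.0487). Over the single genes the replicate block ended 1 call between stages, the fall of Zbtb7b from late to mature in TG6 (0.0524), and added 5, added 1 between lines and 6 in differences of a step, and changed no other call. Same-numbered libraries correlated at 0.0230 to 0.274 in TG6 (7 pairs) and 0.0189 to 0.178 in OT-1 (9 pairs), so that these numbers were not taken as pairs. In F5, the line whose numbers paired the libraries, it also called Cd8a from early to mature (adjusted p = 0.046 against 0.0801).

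Leaving out 1 library gave 3 to 7 in place of 7 for TG6 early to late, 5 to 7 in place of 8 for OT-1 against TG6 early, 0 to 1 in place of 1 for F5 against TG6 early, 2 to 5 in place of 5 for OT-1 against TG6 late, 0 to 1 in place of 1 for F5 against TG6 late, 0 to 1 in place of 0 for OT-1 against TG6 in the step late to mature, 0 to 3 in place of 3 for OT-1 against TG6 mature, 1 to 2 in place of 1 for F5 against TG6 mature, 1 to 2 in place of 1 for OT-1 against F5 in the step early to late, 2 to 5 in place of 5 for OT-1 against F5 mature and 3 to 7 in place of 7 for OT-1 early to late. The cause of these changes was not tested. The longest transcript in place of the joined exons moved 49 of 81 levels per kb by more than their SD, and the pseudocount moved 3 of 72 ratios, all of Runx3 over Zbtb7b in F5. Low values limit Zbtb7b, which is listed at 0 in 2 libraries.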
